A study of Mus musculus with 169 samples.

Results

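Cathepsins A, B, C, D, H, L, S and Z, legumain and cystatin C were followed in microglia sorted from mice with and without progranulin, the secreted and lysosomal glycoprotein encoded by Grn. The 10 genes (Ctsa, Ctsb, Ctsc, Ctsd, Ctsh, Ctsl, Ctss, Ctsz, Lgmn and Cst3) were taken as a named set of lysosomal peptidases with one of their inhibitors, and every probe annotated to them by its accession was used. They had 12 of the 55681 probes of a single-color Agilent array, and the array named 20145 genes in all. The mice were Grn knockouts (KO, Grn-/-) and wild types (WT, Grn+/+) on a C57B/6J background, aged 16 or 4 months, and no treatment was labelled. There were 4 KO and 4 WT arrays at 16 months, and 3 KO and 4 WT arrays at 4 months, of 169 arrays in the whole series. Cells were enriched on Percoll and sorted on the surface markers CD11b, CD45 and Ly6G. The labels give neither the sex of these mice nor whether an array held 1 animal or a pool, so p-values measure the spread between these samples, which may in part be technical.

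Cathepsins are the peptidases that take proteins apart in the acidic lumen of the lysosome, and microglia, the resident macrophages of the brain, use them to digest what they engulf. Most are cysteine peptidases made as inactive precursors and matured in the lysosome, in part by legumain, which cuts after asparagine. Cystatin C is a secreted inhibitor that blocks cysteine cathepsins, and progranulin itself is a lysosomal protein that cathepsins can cut into granulins.

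Levels are log2 values of a spot's processed signal over the 75th percentile of its array, so 0 is the level of that percentile. They are comparable between arrays for 1 probe, and not between probes. The 75th percentile of the signal was 507 to 1037 on KO and 1010 to 1511 on WT arrays at 16 months. At 4 months it was 1072 to 1752 on KO and 1306 to 1649 on WT arrays. Probes well above background made up 54.2 to 62.7% on KO and 64.6 to 69.8% on WT arrays at 16 months. At 4 months they made up 66.4 to 73.0% on KO and 70.3 to 76.5% on WT arrays. WT arrays 1 and 2 at 16 months differed from each other by no more than repeat spots within an array do, as did arrays 3 and 4. Each such pair was counted as 1 replicate, which left 2 WT replicates at 16 months. Grn was at least 1009.7-fold lower in KO than in WT at 16 months, where it was not well above background on any KO array. At 4 months Grn averaged -2.77 ± 0.66 in KO (SD, n = 3) and 6.25 ± 0.09 in WT (SD, n = 4).

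The 4 KO replicates at 16 months stood apart from all others. A first principal component with 62.0% of the variance had them at 213.2 to 261, against -156 to -10.3 for the other 9. Of 12 genes that mark microglia, 11 fell in KO at 16 months and 0 rose, and the median difference was -3.01. Their summed level was 238 to 605 in KO and 1141 to 1943 in WT at 16 months, against 1623 to 2590 in KO and 1690 to 2165 in WT at 4 months. Each marker was well above background on at least 1 KO array. Of 10 genes that mark choroid plexus, 5 rose in KO at 16 months, and the summed level was 1313 to 2538 in KO and 470 to 868 in WT. At 4 months their summed level was 249 to 373 in KO and 14.4 to 154 in WT. There the median difference was 3.05, against 2.16 at 16 months, and 0 of 10 passed, although all 10 had an unadjusted p under 0.05. Such a p was found for 1920 of all 31927 features at 4 months (limma), and 0.0251% of all features passed there. Neutrophil markers summed to 0.62 to 231 in KO and 80.4 to 355 in WT at 16 months, and to 202 to 252 in KO and 33.9 to 119 in WT at 4 months. Of 9 oligodendrocyte markers 4 fell and 1 rose at 16 months. Over all features 19.3% passed as higher and 15% as lower in KO at that age (limma adjusted p under 0.05). Every difference below, at either age, stands beside these values, and their part in it was not tested. In such bulk samples fewer cells of a type and less RNA per cell cannot be told apart.

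**Figure D1:**
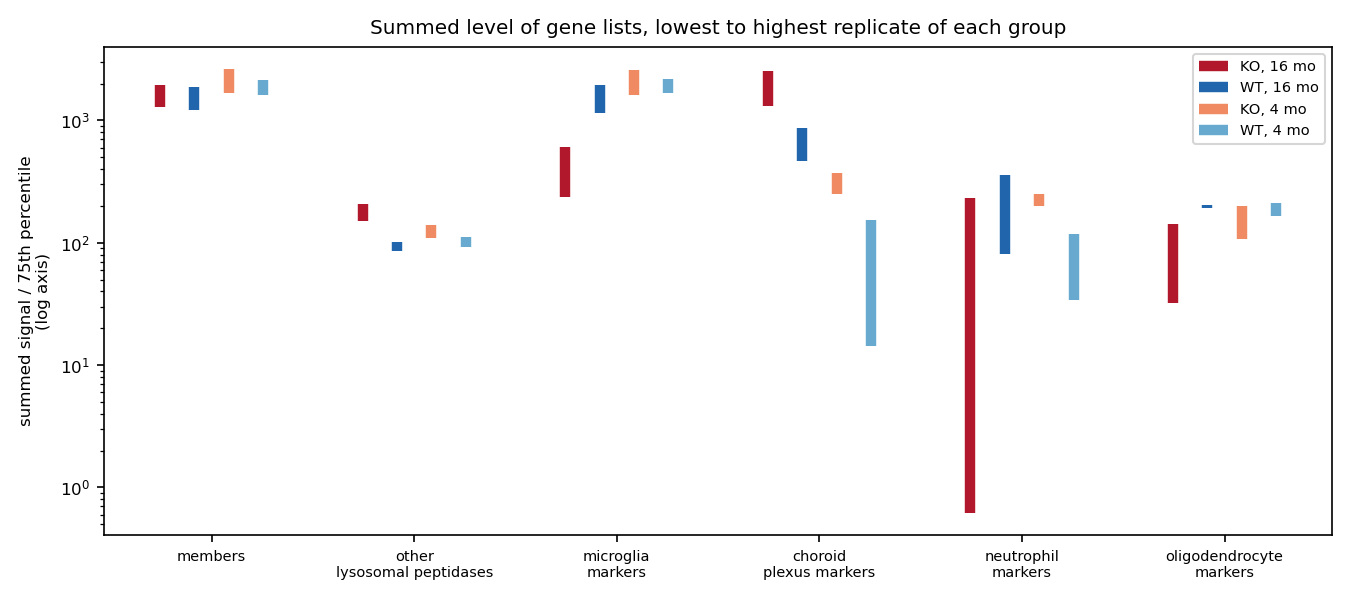
Summed signal over the array's 75th percentile (log axis) of the 10 members and of 5 other gene lists, as a bar reaching across the lowest and highest replicate of each group (KO and WT at 16 months, KO and WT at 4 months). The members' bars overlap between KO and WT at both ages (1294 to 1932 in KO and 1229 to 1863 in WT at 16 months), whereas the microglia marker bar of KO at 16 months lies below and the choroid plexus bar above that of WT. Bars compare groups within a list, not lists with each other.

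The probes used for the members were among the brightest, which does not rank the amounts of their transcripts. Of the 12 probes, 11 were well above background on all 15 arrays, and 10 of those, 1 per gene, were used. The exceptions to 1 probe per gene were Ctsa and Ctsd, which had 2 probes each and are described below. Only 1029 of 31927 features tested were at least as bright as the dimmest member.

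Cathepsin H (Ctsh) fell and cathepsin L (Ctsl) rose in the KO samples at 16 months, and 0 of the 10 members passed the test at 4 months. The 16-month result passed under 14 of 15 other settings for Ctsh and under 3 for Ctsl. The other 8 members did not pass the test at 16 months: Ctsc, Ctsd and Cst3 had differences above 0 (below 0 with quantile normalization) and Ctsa, Ctsb, Ctss, Ctsz and Lgmn below 0 (Ctsa above 0 without WT replicate 3 and 4). A feature was called at an adjusted p under 0.05 by limma. At 16 months 34.3% of all 31927 features were called, 19.3% higher and 15% lower in KO, and 43.7% of the 1029 as bright as the members. The members' 1 higher and 1 lower of 10 are not above those shares. At 4 months 0.0251% of all features, 8 in number, were called, so that 0 of 10 members is near the background. The median member difference was -0.42 at 16 months, against 0.12 over all features, and 0.19 at 4 months, against 0. Over the 1029 features as bright as the members the median was 0.67 at 16 months and 0.16 at 4 months. The members' 4-month median is thus near that of features as bright.

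Ctsh, an aminopeptidase that trims residues from the front end of peptides, had levels of 2.97, 3.59, 3.59 and 4.36 in KO at 16 months. In the 2 WT replicates of that age it had 5.32 and 5.92. The groups did not overlap, and the highest KO replicate lay 0.96 below the lowest WT replicate. The difference was -1.99 (SE 0.33, limma adjusted p 0.00134), or 3.98-fold lower in KO, and 78.8% of all features had a smaller one in size. At 4 months Ctsh had 6.65, 7.12 and 6.79 in KO and 6.77, 6.90, 6.76 and 6.84 in WT. There the KO values lay on both sides of the WT values, and the difference was 0.04 (SE 0.29, limma adjusted p 1). The 16-month difference minus the 4-month difference was -2.03 (SE 0.43, limma adjusted p 0.0146). Ctsh was the only member to pass this test, which 13.3% of all features passed. Each age had its own slide, so slide and age cannot be told apart in it. The call at 16 months held without each KO and each WT replicate in turn (-2.29 to -1.69). It was lost, at an adjusted p of 0.0538, in a fit to the 16-month arrays alone, which called 3425 features.

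Ctsl, a broad endopeptidase, had levels of 8.08, 8.49, 7.78 and 7.74 in KO at 16 months, against 6.90 and 7.48 in WT. The groups did not overlap, although the lowest KO replicate was only 0.26 above the higher WT replicate. The difference was 0.84 (SE 0.29, limma adjusted p 0.0485), or 1.79-fold higher in KO. The 1029 features as bright as the members had a median difference of 0.67 at that age. With quantile normalization the Ctsl difference was 0.23 and did not pass (limma adjusted p 0.406). At 4 months Ctsl had 7.11, 7.96 and 7.37 in KO and 7.55, 7.34, 7.19 and 7.24 in WT, which overlapped, with a difference of 0.15. The rise rests on a p close to the threshold: the call held under 3 of 15 other settings, and without WT replicate 1 and 2 the difference was 0.55 (limma adjusted p 0.317). KO replicates 1, 2 and 3 at 16 months were each needed for it as well (limma adjusted p 0.0823, 0.0794 and 0.0517 without them).

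**Figure D2:**
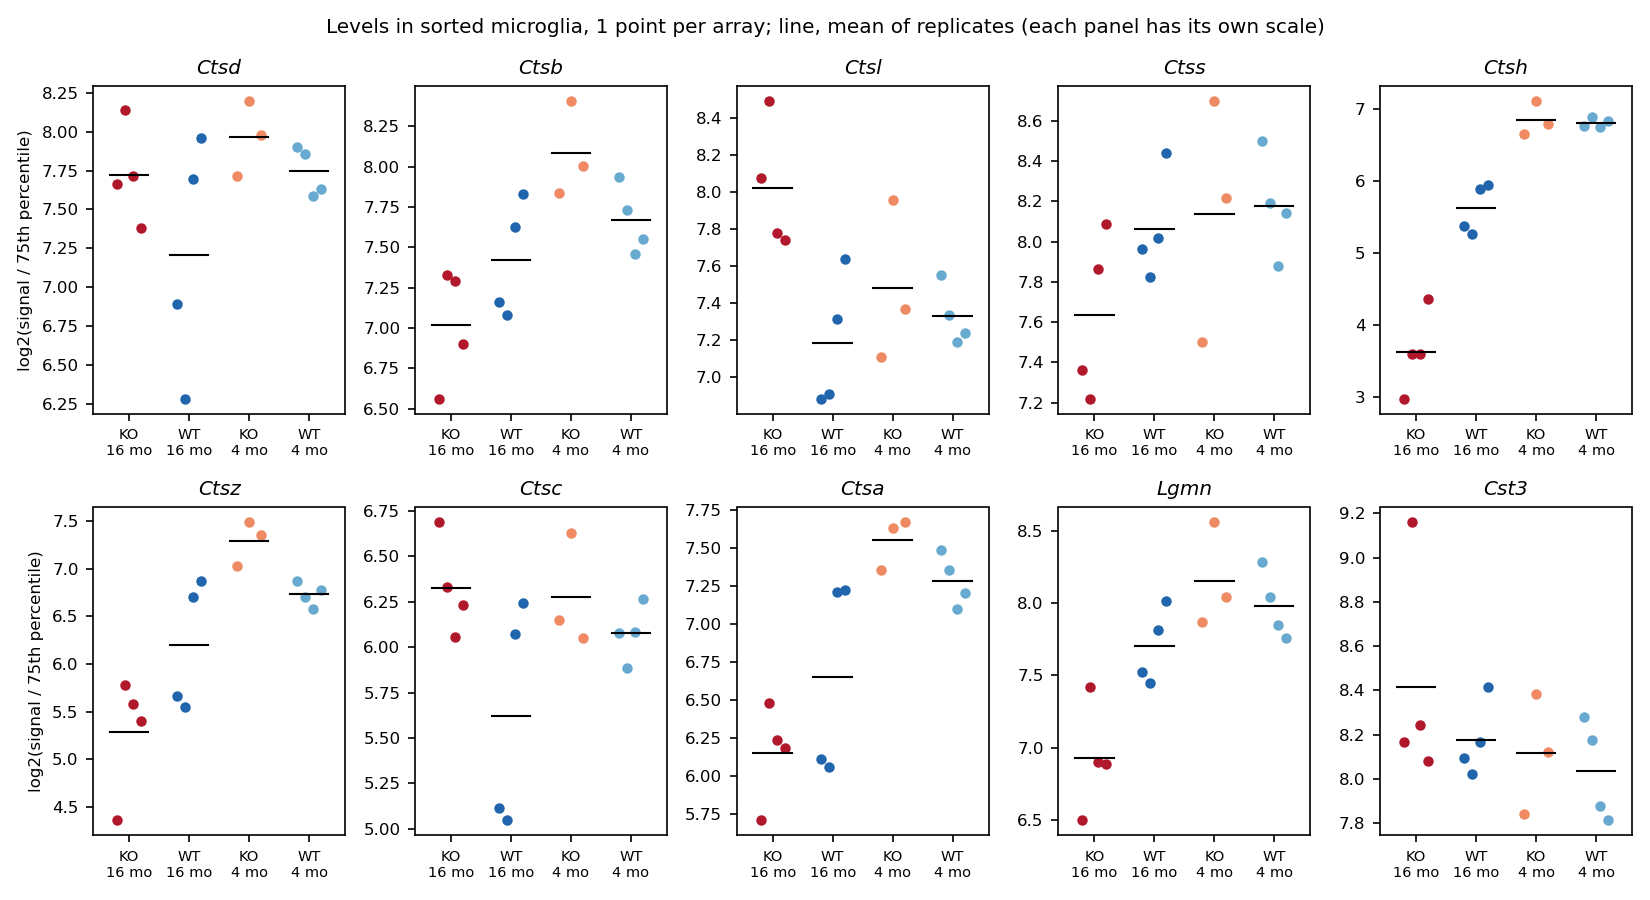
Log2 level of each member by array in KO and WT at 16 months and KO and WT at 4 months, 1 point per array. A line marks the mean of the replicates, and each panel has a vertical scale of its own. Ctsh at 16 months lies between 2.97 and 4.36 in KO and above 5 in WT. The 4 WT arrays at 16 months fall into 2 pairs for Ctsa, Ctsc, Ctsd and Ctsz.

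Lgmn, the asparaginyl endopeptidase, had levels of 6.50, 7.42, 6.90 and 6.88 in KO at 16 months and 7.49 and 7.92 in WT. No KO replicate reached the lower WT replicate, but the difference of -0.77 (SE 0.29) missed the threshold at a limma adjusted p of 0.0601. With Ctsh and Ctsl, Lgmn made 3 of 10 members whose replicates did not overlap, against 42.1% of all features. At 4 months it had 7.87, 8.56 and 8.04 in KO and 8.28, 8.04, 7.85 and 7.76 in WT, which overlapped. Without KO replicate 2, the highest of its group, the 16-month difference was -0.94 and passed (limma adjusted p 0.0193). Without KO replicate 1, the lowest, it was -0.63 and did not pass (limma adjusted p 0.117). Without WT replicate 3 and 4 it was -0.56. The difference passed under 5 of 15 other settings.

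Ctsz (cathepsin Z), a carboxypeptidase that removes single residues from the tail end, had levels of 4.36, 5.78, 5.58 and 5.40 in KO at 16 months. Its WT replicates had 5.60 and 6.79, so that 1 KO replicate lay between them. The difference of -0.92 (SE 0.40) did not pass (limma adjusted p 0.104). At 4 months Ctsz was the only member without overlap, with 7.03, 7.49 and 7.36 in KO and 6.88, 6.71, 6.58 and 6.78 in WT, and 11.6% of all features had none either. That difference was 0.56 (SE 0.36), the largest among the members at 4 months, and did not pass (limma adjusted p 0.973). The sign was thus opposite at the 2 ages, but the test of the change between ages did not pass (-1.47, SE 0.54, limma adjusted p 0.0968).

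Ctsa (cathepsin A), a serine carboxypeptidase that also shields lysosomal beta-galactosidase and neuraminidase, had levels of 5.71, 6.48, 6.23 and 6.19 in KO at 16 months and 6.08 and 7.22 in WT. The KO values crowded around the lower WT replicate, and the difference of -0.50 (SE 0.31) did not pass (limma adjusted p 0.24). Its second and much dimmer probe gave another picture. That probe was well above background on 2 of 4 KO arrays and on all 4 WT arrays at 16 months. It had -4.77, -4.94, -1.50 and -4.46 in KO and -0.05 and -0.06 in WT, and the KO values but one lay at or near the floor of -4.94. It passed as lower in KO when every probe was tested by itself (limma adjusted p 0.00466), but its fitted difference of -3.86 is not an exact size. The 2 Ctsa probes thus disagree on whether a difference was called. At 4 months their differences were 0.27 and 0.06.

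Ctsb (cathepsin B), which works both as an endopeptidase and from the tail end of peptides, had levels of 6.56, 7.33, 7.29 and 6.90 in KO at 16 months. It had 7.12 and 7.73 in WT, within which 2 KO replicates fell. The difference was -0.40 (SE 0.28, limma adjusted p 0.299) at 16 months and 0.41 (SE 0.25, limma adjusted p 0.961) at 4 months. Ctss (cathepsin S), an endopeptidase that stays active at neutral pH and processes the invariant chain in antigen presentation, had 7.36, 7.22, 7.87 and 8.09 in KO and 7.90 and 8.23 in WT at 16 months. It was the most variable member in KO at 4 months, with 7.50, 8.70 and 8.22, against 8.50, 8.19, 7.88 and 8.14 in WT. Its differences were -0.43 (SE 0.35) at 16 months and -0.04 (SE 0.31) at 4 months, and neither passed.

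Ctsc (cathepsin C), the dipeptidyl peptidase that activates granule serine proteases of immune cells, had levels of 6.69, 6.33, 6.06 and 6.23 in KO at 16 months. WT replicate 1 and 2 had 5.08 and WT replicate 3 and 4 had 6.16, so that all KO values but one were above both. The difference of 0.71 (SE 0.30) did not pass (limma adjusted p 0.0938). Ctsd (cathepsin D), the main aspartic endopeptidase of the lysosome, had 7.67, 8.14, 7.71 and 7.38 in KO and 6.59 and 7.83 in WT at 16 months, and its difference of 0.51 (SE 0.32) did not pass either. Both differences depended on which WT replicate they were set against. Without WT replicate 1 and 2 they were 0.17 and -0.10, and without WT replicate 3 and 4 they were 1.25 and 1.13 and passed (limma adjusted p 0.0113 and 0.018). The second Ctsd probe, dimmer than the first, differed by 0.25 at 16 months and had 0.62 in one WT replicate and 4.11 in the other.

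Cst3 (cystatin C), the inhibitor, had group means between 8.04 and 8.41 in all 4 groups. It had 8.17, 9.16, 8.24 and 8.08 in KO and 8.06 and 8.29 in WT at 16 months. KO replicate 2 alone was above all 14 other microglia arrays. The difference was 0.24 (SE 0.30, limma adjusted p 0.594), and -0.01 without that replicate. At 4 months Cst3 had 7.84, 8.38 and 8.12 in KO and 8.28, 8.17, 7.88 and 7.81 in WT. The replicates overlapped at both ages, and an interval of 2 SE either side of the difference takes in 0 at both.

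**Figure D3:**
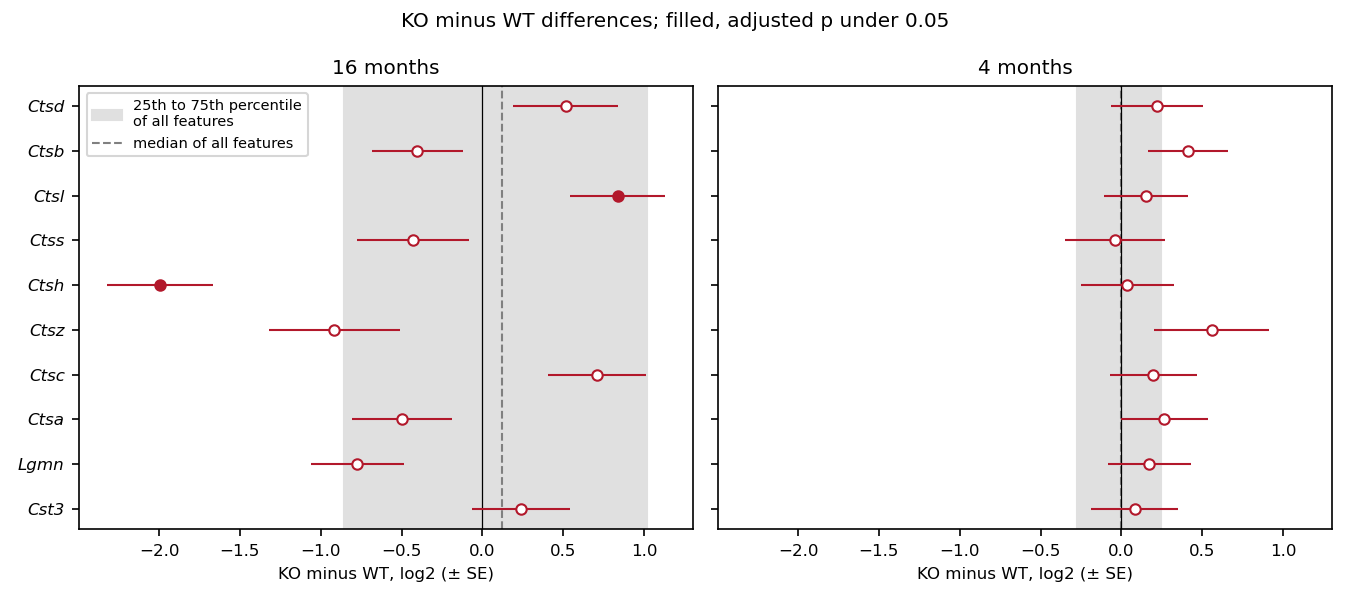
KO minus WT log2 difference of each member with its SE, at 16 months (left) and 4 months (right), beside the span between the 25th and 75th percentiles (grey) and the median (dashed) of all 31927 features. Filled points, Ctsh and Ctsl at 16 months, passed at an adjusted p under 0.05. At 16 months all members but Ctsh and Ctsz have their point inside the grey band.

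The members' differences at 16 months depended on how arrays were put on one scale. With quantile normalization 5 members fell (Ctsa, Ctsb, Ctsh, Ctsz and Lgmn) and 0 rose, and the differences of Ctsc, Ctsd and Cst3 turned to -0.03, -0.07 and -0.38. Of the members, Ctsh kept its call under each of the 3 scaling and background settings, between -2.46 and -2.06. Lgmn, not called as reported, passed as lower under these 3 as well. Its differences were -1.38 (quantile normalization), -1.08 (75th percentile over probes detected on all arrays) and -0.86 (normexp on median spot signals). Their limma adjusted p was 0.00159, 0.00802 and 0.0442.

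**Figure D4:**
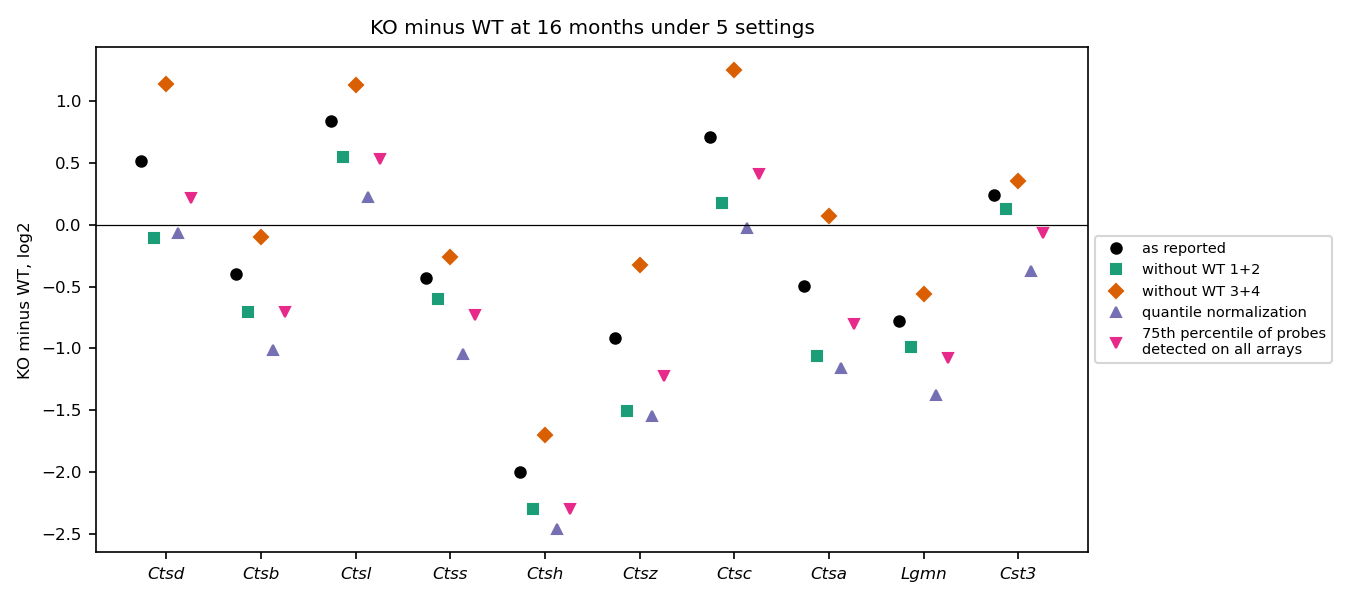
KO minus WT log2 difference of each member at 16 months as reported, without WT replicate 1 and 2, without WT replicate 3 and 4, with quantile normalization, and with a 75th percentile taken over probes detected on all arrays. Ctsh lies between -2.46 and -1.69 in all 5, while Ctsd, Ctsc, Ctsa and Cst3 have values on both sides of 0.

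Values set against the median of the 10 members within a replicate do not depend on the array's scale. In that form Ctsl was 1.04 higher in KO than in WT at 16 months, Ctsc 0.91 and Ctsd 0.72 higher, and Cst3 0.44 higher. Ctsh was 1.79 lower, Ctsz 0.72, Lgmn 0.57 and Ctsa 0.30 lower. Ctsl, for example, lay 0.68 to 1.45 above the member median in KO and between -0.12 and 0.15 in WT, and Ctsh lay between -3.69 and -2.53 in KO and between -1.68 and -1.42 in WT. At 4 months the same differences were at most 0.32 in size (Ctss, -0.32). Subtracting the members' own median places members on both sides of 0 by construction, so these values are a description, and they were not tested.

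**Figure D5:**
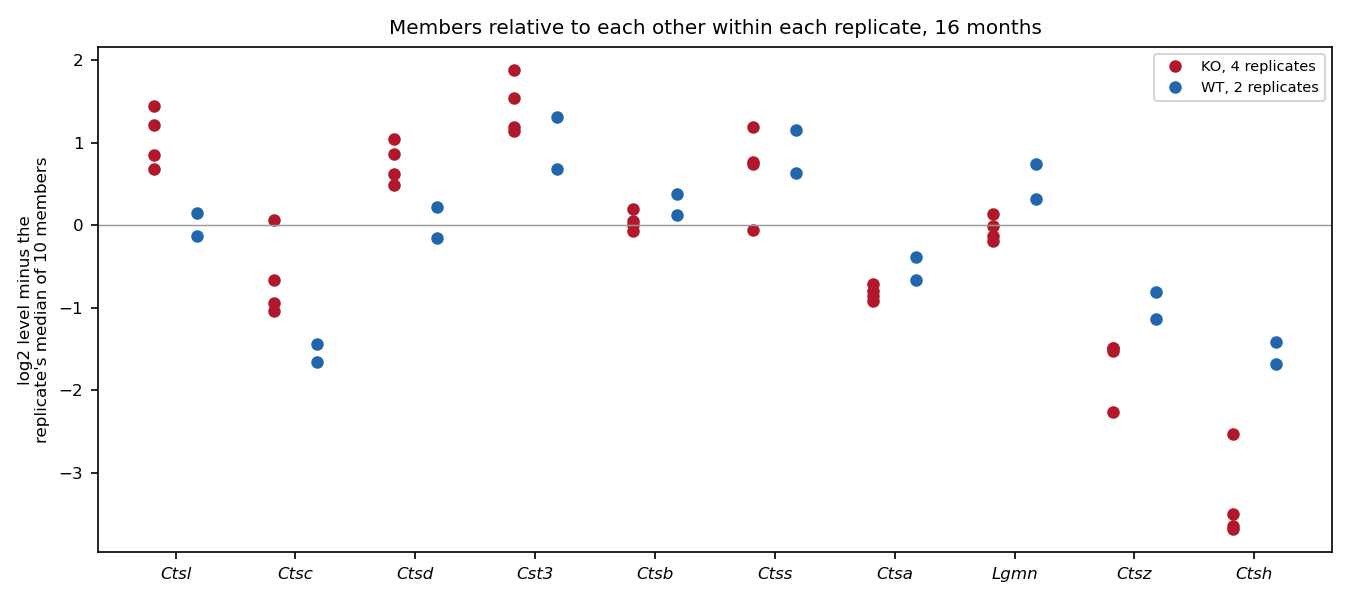
Log2 level of each member minus the median of the 10 members in the same replicate at 16 months, for 4 KO replicates (red, left) and 2 WT replicates (blue, right), ordered by the KO minus WT difference. Ctsl, at the left, lies between 0.68 and 1.45 in KO and between -0.12 and 0.15 in WT, and Ctsh, at the right, between -3.69 and -2.53 in KO and between -1.68 and -1.42 in WT.

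The 2 WT replicates at 16 months were themselves far apart for several members. Replicate 3 and 4 exceeded replicate 1 and 2 by 1.24 for Ctsd, 1.18 for Ctsz, 1.13 for Ctsa and 1.08 for Ctsc, and by 0.23 to 0.61 for the other 6. For Ctsa, Ctsb, Ctsc, Ctsd and Ctsz the distance between the WT replicates exceeded the size of the KO minus WT difference. KO replicate 2 at 16 months, the array with the lowest 75th percentile, was the highest of its group for 7 of 10 members. KO replicate 2 at 4 months was the highest of its group for 9 of 10. With n = 2 in WT at 16 months, the test borrows its spread from the other groups. Pairs of 4-month arrays within a group differed by a scaled median absolute deviation of 0.439 to 0.586. Pairs of KO arrays at 16 months differed by 0.603 to 1.26, so p-values at that age may be too small.

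Over the 13 replicates the members fell into sets that varied together. Ctsa, Ctsb, Ctsh, Ctsz and Lgmn correlated with each other at a Pearson r of 0.81 (Ctsb and Ctsh) to 0.98 (Ctsa and Ctsz). Ctsl correlated at 0.80 with Cst3, and Ctsc at 0.73 with Ctsd. Ctsh and Ctsl ran against each other, with r = -0.62. Of all named features, those most like Ctsh were Fam117b, Ecscr and Il6ra (r = 0.996, 0.994 and 0.991). Those most like Ctsl were Ppib, Rpsa and Rpl6 (r = 0.97, 0.966 and 0.966), and those most like Cst3 were Rpl23, Exosc2 and Rps16 (r = 0.941, 0.938 and 0.937). Ctsa was most like Cln3, another lysosomal gene, then Ctsz and Tep1 (r = 0.979, 0.977 and 0.972). Ctsb was most like Ctsz and Vps54 (r = 0.958 and 0.956), and Ctsz like Fam168b, P2rx4 and Ctsa (r = 0.98, 0.977 and 0.977). Lgmn was most like Rock2, Mau2 and Ndel1 (r = 0.98, 0.977 and 0.976), and features like Ctss included Selenop and Aggf1 (r = 0.882 and 0.861). Ctsc was most like Ikzf3, Clk3 and Rnf148 (r = 0.923, 0.912 and 0.907), and Ctsd like Arpc5, Olfr434 and Olfr1339 (r = 0.941, 0.933 and 0.925). These correlations describe replicates that share arrays, scaling, 2 slides and the large split of the 16-month KO arrays.

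Promoters are shown because lysosomal genes often carry the E-box CACGTG that the transcription factors TFEB, TFE3 and MITF bind. RefSeq promoters, from 250 bases before to 50 after the annotated start (assembly GRCm38.p6), were found for 8 of the 10 members, and none was listed for Ctsb and Ctsh. CACGTG, which reads the same on both strands, was in a promoter of 4 of these 8 (Ctsa, Ctsd, Ctsl and Lgmn) and in 7.15% of all 32851 promoters. The longer TCACGTGA, which contains it, was in those of Ctsa and Ctsd and in 0.974% of all. GAGGAAGT, a motif of the myeloid factor PU.1 searched on both strands, was in those of Ctsc and Ctss and in 3.2% of all. The 250 bases before the start are printed for the 4 members with CACGTG, which stands in capitals. The windows are chr2:164833523-164833772 on the plus strand for Ctsa, chr7:142387828-142388077 on the minus strand for Ctsd, chr13:64370521-64370770 on the minus strand for Ctsl and chr12:102439093-102439342 on the minus strand for Lgmn. Ctsa and Lgmn each had a second annotated start, with no CACGTG in its window. The 8 members thus had 10 promoters, and the shares of all are counted per promoter. A second CACGTG of Ctsa lies 5 bases past the start used here, beyond the printed bases.
Ctsa: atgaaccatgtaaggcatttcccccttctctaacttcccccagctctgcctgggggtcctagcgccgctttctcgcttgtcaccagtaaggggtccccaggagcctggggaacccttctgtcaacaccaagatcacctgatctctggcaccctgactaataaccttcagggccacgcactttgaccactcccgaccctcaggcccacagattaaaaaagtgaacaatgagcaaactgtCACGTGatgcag
Ctsd: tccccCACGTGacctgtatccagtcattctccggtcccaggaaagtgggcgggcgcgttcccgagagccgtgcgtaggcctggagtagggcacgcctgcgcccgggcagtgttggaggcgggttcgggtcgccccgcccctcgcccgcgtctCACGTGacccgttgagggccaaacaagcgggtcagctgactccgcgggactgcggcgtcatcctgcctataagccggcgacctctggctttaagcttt
Ctsl: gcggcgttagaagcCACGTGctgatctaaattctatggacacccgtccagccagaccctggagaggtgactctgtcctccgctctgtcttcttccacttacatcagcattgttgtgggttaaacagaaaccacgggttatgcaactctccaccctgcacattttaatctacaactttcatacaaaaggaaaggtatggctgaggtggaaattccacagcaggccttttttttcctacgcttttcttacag
Lgmn: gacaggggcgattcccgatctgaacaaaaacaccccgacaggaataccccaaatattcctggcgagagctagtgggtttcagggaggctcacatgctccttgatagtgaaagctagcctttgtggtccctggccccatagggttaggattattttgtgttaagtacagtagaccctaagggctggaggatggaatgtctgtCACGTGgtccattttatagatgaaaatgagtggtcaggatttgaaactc
Among the 4 genes with the motif, Ctsl and Ctsd had differences above 0 at 16 months, and Ctsa and Lgmn below. The exceptions for Ctsd and Ctsa are given above. Only the Ctsl difference was called (limma adjusted p 0.0485), and whether the 4 share a direction was not tested. A match describes the letters of the window and is not a measured binding site.

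Among the transcription factors that act on lysosomal genes, 1 of 4 rose and 1 fell in KO at 16 months. The counts of this list and those below stand beside 19.3% of all features called higher and 15% called lower. Tfe3 averaged 1.21 ± 0.56 in KO (SD, n = 4) and 3.96 ± 0.66 in WT (SD, n = 2), a difference of -2.76 (SE 0.36, limma adjusted p 0.00042). Mitf differed by 0.86 (SE 0.25, limma adjusted p 0.0221). Tfe3 kept its call under all 15 other settings and Mitf under 10, not with quantile normalization (0.21, limma adjusted p 0.489) or the replicate block (limma adjusted p 0.0794).

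Of 12 other lysosomal peptidases, 3 rose, 3 fell and 6 did not pass at 16 months, with a median difference of 0.25. Of all features 34.3% were called at that age. Prcp, a carboxypeptidase that acts on peptides ending after proline, fell to 1.05 ± 0.81 in KO (SD, n = 4), against 4.27 ± 0.44 in WT (SD, n = 2), a difference of -3.22 (SE 0.44, limma adjusted p 0.000553). Cpq, a carboxypeptidase, and Dpp7, a dipeptidyl peptidase, rose by 1.90 (SE 0.32, limma adjusted p 0.00154) and 1.70 (SE 0.30, limma adjusted p 0.00202). Ctse, the aspartic cathepsin E, passed as lower in KO (limma adjusted p 0.0171), but was well above background on 1 of 4 KO arrays and on all 4 WT arrays. Its KO mean of -4.90 lay next to the floor of -4.94, so the fitted difference of -2.30 is not an exact size. It was -1.28 with normexp on median spot signals, and -1.42 without WT replicate 3 and 4, where the call was lost (limma adjusted p 0.186).

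Of 10 other cystatins and stefins, 8 were tested, of which 2 rose and 1 fell at 16 months, against 34.3% of all features called. Cstb (cystatin B), an inhibitor that works inside the cell, averaged 5.10 ± 1.17 in KO (SD, n = 4) and 2.93 ± 0.62 in WT (SD, n = 2), a difference of 2.17 (SE 0.61, limma adjusted p 0.0195). That call was lost with a replicate block (limma adjusted p 0.0587), with 16-month arrays only (0.157) and without WT replicate 3 and 4 (0.146). Stfa3 and Stfa2l1, both stefins, differed by 0.96 and -0.83 (limma adjusted p 0.0351 and 0.0469). Both were dim, on a scale with its floor at -4.94. Stfa3 averaged -3.19 in KO and -4.15 in WT, and Stfa2l1 -3.12 in KO and -2.29 in WT. Their calls held under 8 and 5 of 15 other settings, and both were lost with a replicate block (limma adjusted p 0.0612 and 0.0706). They are near-identical copies within a family, so a probe may also detect the transcript of another copy.

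Of 12 genes that sort enzymes to the lysosome, 4 were higher and 2 lower at 16 months, against 19.3% and 15% of all features. M6pr and Igf2r, the mannose 6-phosphate receptors that carry cathepsins out of the Golgi, rose by 2.05 (SE 0.31, limma adjusted p 0.000844) and 1.86 (SE 0.63, limma adjusted p 0.0437). Gga2, an adaptor for those receptors, rose by 2.74 (SE 0.25, limma adjusted p 9.95e-05), while its relative Gga3 fell by 2.71 (SE 0.35, limma adjusted p 0.000394). The replicates of Igf2r overlapped between KO and WT, and its call held under 7 of 15 other settings. In all 4 lists 0 genes passed at 4 months.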

How the data were processed

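Per the file headers, the deposited Agilent values are spot intensities from Feature Extraction 10.7.3.1 (array design 028005), and the processed signal is the intensity after background subtraction; R 2.15.3 is also named in the submitters' processing notes. On the 4-month arrays the deposited signal also carried a factor that varied over the slide. Bead arrays of brain regions were not analysed here, because their probes were not paired with genes.

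The processed signal was divided by each array's 75th percentile, repeat spots of a probe were averaged without outlier flags, and values under 0.0325 were set to that floor before log2 (-4.94). Probes well above background on at least 3 arrays (45615) were kept, with the brightest probe per gene (31927 features, 17798 with a symbol). Arrays differing by a scaled median absolute deviation of 0.107 to 0.138 were averaged, against 0.439 to 1.26 in other pairs. One limma 3.58.1 model (R 4.3.3) was fitted over 13 replicates in 4 groups. Tests were two-sided with Benjamini-Hochberg adjustment over all features and a threshold of 0.05, and the code was tested on simulated data. Figures were drawn with matplotlib 3.10.9. A fold against Grn in KO at 16 months uses the floor. Alternatives were other scaling, background correction, filters, a replicate block, single ages and leaving out each replicate. Same-numbered KO and WT arrays had deviations correlated at -0.04 to -0.03 at 4 months and 0.10 to 0.13 at 16 months, where the value rests on a single WT difference. What such a number marks is not labelled. Each age had its own slide and genotypes lay at different slide positions, so slide and age, and position and genotype, cannot be told apart. The number of arrays limits the precision, and 0 spots were saturated. In every comparison all 10 members are named, with at most 4 called genes of each other list (those that differ most). The members and lists were chosen with earlier results of these data known. For each member the 3 features with the highest correlation were sought, and some of these are not reported here.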

Additional observations from a re-analysis of the deposited data

Results flagged for a closer look

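Cst3 in KO at 16 months had 1 replicate apart from the others. KO replicate 2 stood at 9.16, against 8.08 to 8.24 in the other 3, and the gap made up 0.849 of the group's range. Chance gives such a gap in about 1 of 20 groups, and 20 were examined. The same array had the lowest 75th percentile of all.

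The KO minus WT difference of Ctsh differed between the ages, each of which had its own slide, so slide and age cannot be told apart. At 16 months KO was lower than both WT replicates in 4 of 4 replicates. The 16-month difference minus the 4-month difference was -2.03 (SE 0.43, limma adjusted p 0.0146). It passed under all 21 other settings.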

How the results depend on the processing

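Under 15 other settings Ctsh at 16 months kept its direction in all and its call in 14 (adjusted p up to 0.0538), and Ctsl kept its direction in all and its call in 3. At 16 months the counts of members higher and lower were 0 and 5 with quantile normalization. With the 75th percentile over probes detected on all arrays they were 0 and 3 (Ctsh, Ctsz and Lgmn). The counts were 0 and 2 with normexp on median spot signals (Ctsh and Lgmn), and 2 and 3 with each WT array as its own replicate. They were 0 and 1 with probes above background on all arrays, with no filter, with every probe as its own feature and with the replicate block (Ctsl adjusted p 0.12). With 16-month arrays only they were 0 and 0, with 3425 features called, 10208 at an unadjusted p under 0.05, and 2 members at it. Leaving out 1 replicate gave 0 to 3 higher and 1 to 3 lower.

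Without WT replicate 1 and 2, Ctsa and Ctsz fell as well (-1.06 and -1.51). Reversed differences at 16 months were, with quantile normalization, Ctsc -0.027, Ctsd -0.070 and Cst3 -0.38, and with the detected-probe percentile Cst3 -0.065. Leaving out 1 replicate gave -0.0097 to 0.35 for Cst3, -1.06 to 0.068 for Ctsa and -0.10 to 1.13 for Ctsd. Normexp was run on the median spot signals, since mean signals were not used here. It moved the median difference of all features to 0.44, against 0.12 as reported, and the detected-probe percentile moved it to 0. The share of calls that were higher in KO was 56.3% as reported and 43.5% with that percentile.

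At 4 months 0 members passed under any of 16 settings, and 0 at an unadjusted p under 0.05 as reported (limma). All features called there were 2 with quantile normalization, 1 with normexp and 0 with probes above background on all arrays (756 at an unadjusted p under 0.05). They were 1 with the replicate block, 16 with single WT arrays and 26 with 4-month arrays only. Leaving out 1 of the 4-month replicates gave 3 to 10. Reversed there were Ctsh (-0.085 with quantile normalization, -0.033 with the detected-probe percentile, -0.014 with normexp), Cst3 (-0.0031 with quantile normalization) and Ctss (0.065 with normexp). Without 1 of those replicates Cst3 ranged over -0.053 to 0.22, Ctsh -0.095 to 0.14, Ctsl -0.089 to 0.34, Ctss -0.32 to 0.28 and Lgmn -0.028 to 0.32.

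For the change between ages, members lower were 4 with quantile normalization, 2 with the detected-probe percentile and 1 to 3 without 1 replicate. All features called were 1955 with the replicate block, 6783 with single WT arrays and 2432 to 5639 without 1 replicate. Reversed were Ctsc -0.13, Ctsd -0.15 and Cst3 -0.37 with quantile normalization and Cst3 -0.076 with the detected-probe percentile. Without 1 replicate Cst3 ranged over -0.091 to 0.29, Ctsc -0.028 to 1.05 and Ctsd -0.32 to 0.92. The causes were not tested. The fits planned for cortex, hippocampus and cerebellum were not run. With 2 WT replicates at 16 months, leaving one out sets KO against a lone WT sample assumed to vary like the other groups.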
